A study of Schizosaccharomyces pombe with 4 samples.

Results

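The 10 genes described here are 5 pairs of ribosomal protein paralogs of the fission yeast Schizosaccharomyces pombe, namely rpl301 (SPAC17A5.03) and rpl302 (SPAPB8E5.06c), rpl401 (SPBC1711.06) and rpl402 (SPBP8B7.03c), rpl801 (SPAC1F7.13c) and rpl802 (SPBC2F12.07c), rps101 (SPAC13G6.02c) and rps102 (SPAC22H12.04c), and rps601 (SPAC13G6.07c) and rps602 (SPAPB1E7.12). They were given as a list of systematic identifiers, with no threshold on their values but with earlier results of these data known, and all 10 were found among the 7049 genes of the deposited count table. They belong to 138 genes of cytosolic ribosomal proteins in that table. RNA was compared between 2 delta4dus libraries, from a strain in which all 4 dihydrouridine synthase genes (dus1, dus2, dus3 and dus4) are deleted, and 2 libraries of wild type (WT). Both strains were grown in YES, a rich medium, at 32 °C and harvested at an OD595nm of about 0.5. The labels give no further allele or strain background, and nothing in them states that replicates came from separate cultures. The p-values therefore measure only the spread between these libraries, which may be technical.

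Each ribosome carries a single copy of nearly every ribosomal protein, and yeasts encode many of these proteins by more than one gene. Paralogs of a pair yield the same or nearly the same protein, so the messenger RNA of the pair is drawn from both loci, often in unequal amounts. Fission yeast ribosomal protein genes commonly have a HomolD box in place of a TATA box, and a HomolE box is often found next to it. The dihydrouridine synthases reduce uridine to dihydrouridine in transfer RNA. The question asked of the pairs was how the messenger RNA of each was divided between its 2 genes, and whether the division or the total differed in delta4dus.

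The members fall into large-subunit and small-subunit proteins. Rpl3 (uL3, made from rpl301 and rpl302) lies near the peptidyl transferase centre, uL4 (rpl401 and rpl402) reaches into the wall of the peptide exit tunnel, and uL2 (rpl801 and rpl802) lies close to the peptidyl transferase centre and the subunit interface. In the small subunit, eS1 (rps101 and rps102) lies on the platform near the messenger RNA exit, and eS6 (rps601 and rps602) is phosphorylated downstream of TOR. The uL2 family has a further gene, rpl803 (SPBC839.04), which is not a member and is given beside its pair. The gene named rpl8 encodes another protein and was not grouped with it.

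How far the paralogs can be told apart by their reads depends on their coding sequences, which were taken from the RefSeq annotation of ASM294v3. Each of the 10 genes has 1 exon, and within a pair the coding sequences have equal length. The stretches below show bases that differ within the pair in capitals. For rpl301 and rpl302, 43 of 1167 bases differed (96.32% identity), and the stretches with the most and the fewest differences are shown because the differences are gathered at one end. The first stretch covers coding positions 4 to 63, with 11 differences.
rpl301 (chrI:1756112-1756171, plus strand): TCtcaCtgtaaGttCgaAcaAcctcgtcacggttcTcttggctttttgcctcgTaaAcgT
rpl302 (chrI:4918929-4918988, minus strand): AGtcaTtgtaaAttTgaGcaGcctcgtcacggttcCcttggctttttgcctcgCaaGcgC
The second covers positions 313 to 372, with 0 differences.
rpl301 (chrI:1756421-1756480, plus strand): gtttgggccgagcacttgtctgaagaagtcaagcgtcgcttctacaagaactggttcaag
rpl302 (chrI:4918620-4918679, minus strand): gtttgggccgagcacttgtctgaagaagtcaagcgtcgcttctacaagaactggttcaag
It is the start of a run of 848 identical bases, from position 313 to 1160. Of all 100-base windows of the transcript, 65.3% of those of rpl301 occurred letter for letter in rpl302, and 54.51% of those of rpl302 occurred in rpl301. Reads from that run fit both genes, so the split of counts between rpl301 and rpl302 is uncertain.

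The other pairs differ along their whole coding sequence. Identity was 89.56% for rpl401 and rpl402 (114 of 1092 bases differed), 92.39% for rpl801 and rpl802 (58 of 762), 88.19% for rps601 and rps602 (85 of 720) and 80.79% for rps101 and rps102 (146 of 759). The most divergent stretch of the rpl401 pair is shown because that pair gave the largest change in ratio of the 5, with 15 differences at coding positions 1027 to 1086.
rpl401 (chrII:2144163-2144222, plus strand): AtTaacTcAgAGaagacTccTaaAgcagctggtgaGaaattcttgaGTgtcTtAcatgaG
rpl402 (chrII:3636561-3636620, minus strand): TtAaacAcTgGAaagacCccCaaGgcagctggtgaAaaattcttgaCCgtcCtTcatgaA
The rps101 pair is shown as the least alike of the 5, with 17 differences at positions 283 to 342.
rps101 (chrI:175430-175489, minus strand): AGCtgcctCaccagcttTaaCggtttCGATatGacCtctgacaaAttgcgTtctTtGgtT
rps102 (chrI:898608-898667, minus strand): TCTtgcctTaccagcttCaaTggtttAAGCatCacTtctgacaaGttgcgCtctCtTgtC
In these 4 pairs no 100-base window of either transcript occurred in the other. At 50 bases, 7.18% of the windows of rpl802 occurred in its other paralog rpl803, and 0.0% did for the other members of these pairs.

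**Figure D1:**
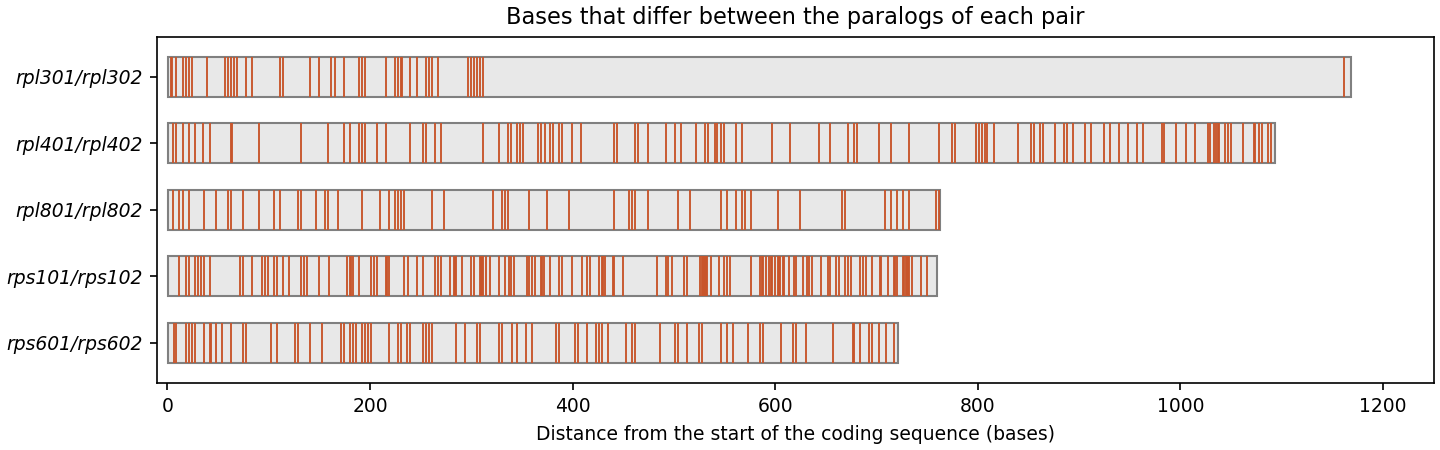
Positions at which the 2 coding sequences of each pair differ, drawn as vertical lines along a bar that spans the coding sequence (x axis, bases from its start). In rpl301/rpl302 the differences end at position 312 apart from the last few bases, whereas in the other 4 pairs they run along the whole bar.

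The genes also differ in the boxes before their starts. The HomolD letters CAGTCACA (or TGTGACTG, the same box on the other strand) were found within 250 bases before the RefSeq start of 6 of the 10 members, and of 88 of 138 cytosolic ribosomal protein genes (63.77%) and 134 of 5113 nuclear coding genes (2.62%). Each 30-base window below is printed in the direction of transcription, with the box in capitals, because it shows which paralogs of a pair carry these exact letters.
rpl301 (chrI:1756025-1756054, plus strand): cctaaaaagaaCAGTCACAatgtgttgaag
rpl401 (chrII:2143058-2143087, plus strand): accctagcagaTGTGACTGttttgtgtagc
rpl801 (chrI:4251477-4251506, minus strand): atgaccgaaaaCAGTCACAttttacaacaa
rps102 (chrI:898988-899017, minus strand): tcaaaaaaggaCAGTCACAaatagcacttt
rps601 (chrI:187617-187646, minus strand): ctatcccaaatTGTGACTGctcttagagga
rps602 (chrI:3319179-3319208, plus strand): taatcgaacatTGTGACTGtttaaaaaagt
In 4 pairs one paralog held the box and its partner (rpl302, rpl402, rpl802 or rps101) did not, and in the rps6 pair both did. No match says only that these letters are not in this window. The deposited genes rpl301, rpl401, rps601 and rps602 begin 69, 108, 100 and 61 bases further upstream than the RefSeq genes, so their HomolD boxes lie inside the intervals in which reads were counted. The HomolE letters AGGGTAGG (or CCTACCCT) were found before 4 members, rpl301, rpl401, rps102 and rps602, against 37.68% of the ribosomal protein genes and 1.66% of coding genes. Of the 4 pairs with HomolD before 1 paralog, the gene with the box had more counts in 3 (rpl301, rpl801 and rps102) and fewer in the other, where rpl401 held both boxes. No test was made of this, and the split of the rpl301 pair is uncertain.

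The libraries held 435405178 and 495098038 counts in delta4dus, and 289767027 and 264948323 counts in WT. Ribosomal RNA genes took 84.69% to 90.68% of them, with the highest share in delta4dus replicate 2, whose scaling factor (0.662) also lay below those of the other 3 libraries (1.094 to 1.227). Of the deleted genes, dus1, dus2 and dus3 passed the test and dus4 did not. Normalised counts of dus1 were 135 and 186 in delta4dus against 2246 and 2372 in WT, those of dus2 were 291 and 307 against 2384 and 2241 in WT, and those of dus3 were 1308 and 1362 against 3955 and 3930 in WT. For dus4 they were 314 and 156 in delta4dus against 541 and 571 in WT, a log2 fold change of -1.23 that did not pass the test (edgeR adjusted p = 0.626). How much of each counted interval was deleted is not stated in the labels. All 10 members passed the filter on low counts, with 27022 to 296385 counts per library. They made up 2.3% and 2.24% of all counts outside ribosomal RNA genes in delta4dus, and 2.33% and 2.23% in WT. All values are relative within a library, so a change in the total messenger RNA of a cell would not be seen.

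None of the 10 genes passed the test of delta4dus against WT. edgeR's quasi-likelihood test gave adjusted p-values of 0.935 to 0.997 for them, where 5 of 6813 genes tested (0.0734%) passed an adjusted p of 0.05, namely dus1, dus2, dus3, prp4 and SPNCRNA.1212. At an unadjusted p under 0.05 the count was 0 of 10, beside 7.57% of all genes, and DESeq2 and the authors' deposited table also gave 0 of 10 by either p. The normalised counts (counts divided by the scaled library size) of the groups lay apart, without overlap, in 0 of 10 members, beside 38.7% of all genes tested. Log2 fold changes of delta4dus over WT lay between -0.04 and 0.05, with 7 above 0 and 3 below, and their median of 0.02 stands beside a median of 0 over all genes. Their 95% intervals reached from -0.43 to 0.51 at the widest, so changes inside those intervals were not excluded by the edgeR test.

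Of the large-subunit genes, rpl301 at chromosome I 1756016 to 1757330 (plus strand, ASM294v2 coordinates of the deposited table) had normalised counts of 226773 and 247792 in delta4dus against 228125 and 233952 in WT. Its means were 237282 ± 14863 in delta4dus and 231038 ± 4120 in WT (SD, n = 2 each), a log2 fold change of 0.04 (SE 0.189, edgeR adjusted p = 0.979). The delta4dus libraries lay on both sides of the WT libraries. Its partner rpl302, on the minus strand of the same chromosome at 4917555 to 4919099, had 180779 and 199463 in delta4dus against 180201 and 186537 in WT, again with overlap (log2 fold change 0.05, SE 0.177, edgeR adjusted p = 0.965).

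For uL4, rpl401 (chromosome II, 2143012 to 2144391, plus strand) had 47982 and 51705 normalised counts in delta4dus against 50808 and 51956 in WT. Its log2 fold change of -0.04 (SE 0.0919, edgeR adjusted p = 0.935) was the lowest of the 10 members, and its groups overlapped. The more abundant partner rpl402 (chromosome II, 3636475 to 3637726, minus strand) had 124128 and 137491 in delta4dus against 127523 and 130929 in WT, where the delta4dus libraries again enclosed those of WT (log2 fold change 0.02, SE 0.152, edgeR adjusted p = 0.989).

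For uL2, rpl801 (chromosome I, 4250595 to 4251468, minus strand) had 75330 and 90483 normalised counts in delta4dus against 78496 and 83330 in WT, the widest spread between delta4dus replicates among the members on the log2 scale. The gene rpl802 (chromosome II, 1726632 to 1727577, plus strand) had 29638 and 35029 in delta4dus against 30314 and 33037 in WT. The further paralog rpl803 (chromosome II, 601209 to 602186, plus strand) had 30580 and 36064 in delta4dus against 31988 and 32921 in WT. All 3 showed the same order of libraries, with delta4dus replicate 1 lowest and delta4dus replicate 2 highest, and log2 fold changes of 0.03 to 0.04 (edgeR adjusted p between 0.952 and 0.971).

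In the small subunit, rps101 (chromosome I, 174865 to 176655, minus strand) had 71209 and 75982 normalised counts in delta4dus against 72984 and 76298 in WT (log2 fold change -0.02, SE 0.112, edgeR adjusted p = 0.979). Its partner rps102 (chromosome I, 898045 to 898994, minus strand) had 132217 and 144276 in delta4dus against 136555 and 140430 in WT. Means of rps102 were 138247 ± 8527 in delta4dus and 138492 ± 2740 in WT (SD, n = 2 each), the smallest difference of the 10 genes (edgeR adjusted p = 0.997). The eS6 gene rps601 (chromosome I, 186314 to 187683, minus strand) had 79537 and 85434 in delta4dus against 80885 and 82695 in WT, and rps602 (chromosome I, 3319189 to 3320060, plus strand) had 73486 and 83030 in delta4dus against 74958 and 77425 in WT. In both eS6 genes the WT libraries lay between those of delta4dus.

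**Figure D2:**
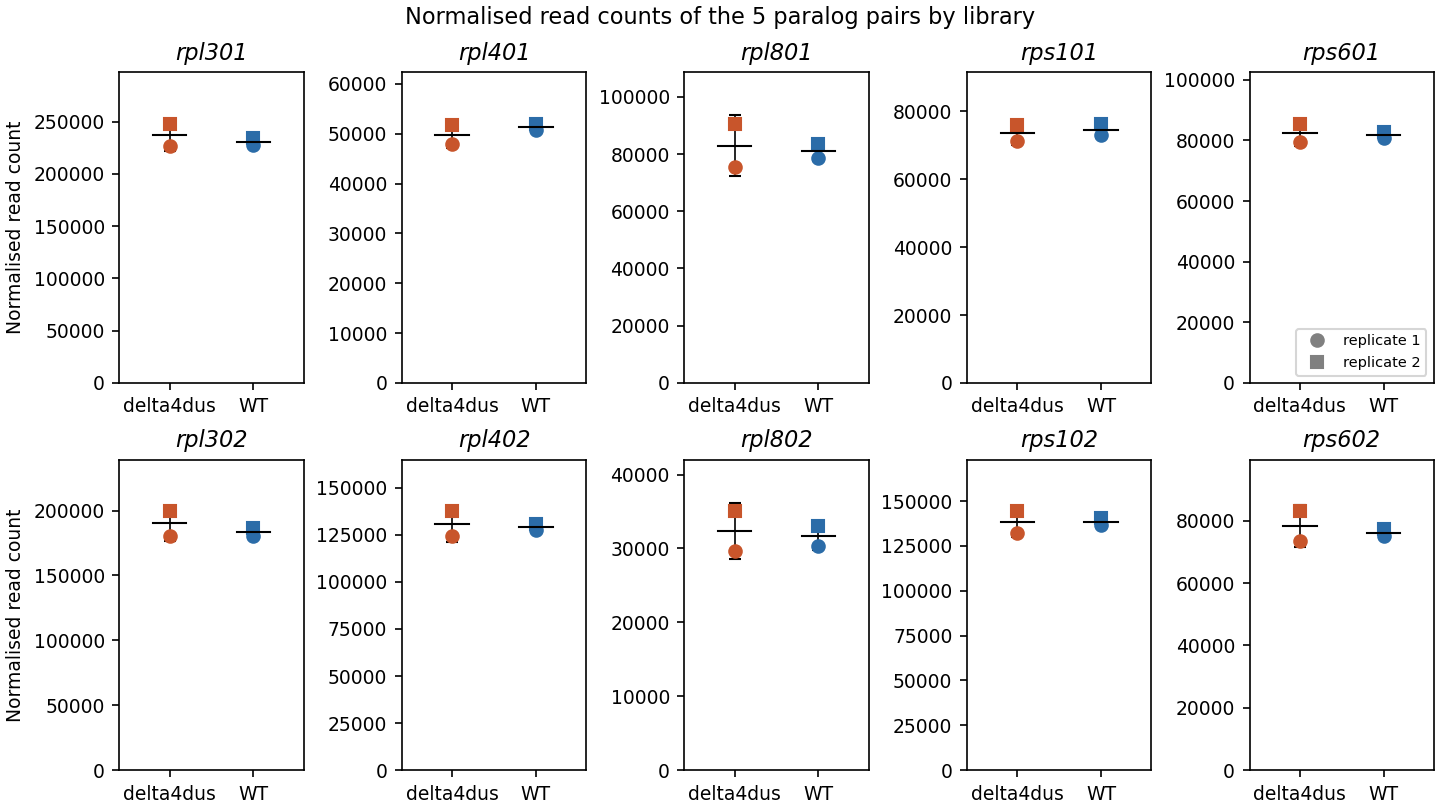
Normalised read counts (y axes, from 0) of the 10 members in the delta4dus (left) and WT (right) libraries, where circles are replicate 1, squares replicate 2, horizontal lines group means and bars 1 SD. The groups overlap in every panel, and the delta4dus replicates lie further apart than those of WT.

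The 10 genes followed a like order over the libraries. Delta4dus replicate 1 was the lowest library for 9 members (WT replicate 1 for the other), and delta4dus replicate 2 was the highest for 8 (WT replicate 2 for the others). The mean of the members, as log2 normalised counts centred on each gene, was -0.0696 and 0.0833 in the delta4dus libraries against -0.0344 and 0.0206 in WT. Without delta4dus replicate 2 the median log2 fold change of the members was -0.06, and without delta4dus replicate 1 it was 0.09. In both strains each member was lower in replicate 1 than in replicate 2. Over all genes same-numbered libraries deviated alike (Pearson's r = 0.623), and the labels do not say whether replicate numbers pair the libraries. The main test did not use the replicate number, and a fit with a replicate block is given below. Depth, ribosomal RNA share and scaling factor also differed between these libraries as given above. Neither their part in the order nor that of the replicate number was tested.

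Among 1138 coding genes outside the ribosomal protein list with a mean of at least 100 CPM, those whose profile over the 4 libraries was most like the mean of the members were SPAC29A4.02c, erg10, gnd1, his7 and SPAP8A3.07c. SPAC29A4.02c encodes the gamma subunit of elongation factor EF-1, and differed from the members' mean by 0.003 (root mean square of centred log2 values). The other 4 encode enzymes of metabolism (acetyl-CoA acetyltransferase, phosphogluconate dehydrogenase, a histidine biosynthesis enzyme and an aldolase of aromatic amino acid synthesis) and differed by 0.0086 to 0.012. The median over the compared genes was 0.0749, and the members themselves lay at 0.0064 to 0.042. With 4 libraries this is a description of their order only.

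Within a pair, the genes were used unequally. The paralog shares were the percentages of the pair's counts, not divided by gene length, with 95% Wilson intervals for counting error only. The most uneven pairs were rpl401 and rpl402, where the rpl401 share was 27.88% (27.69 to 28.06) and 27.33% (27.12 to 27.54) in delta4dus against 28.49% (28.28 to 28.7) and 28.41% (28.18 to 28.64) in WT, and rpl801 and rpl802, where the rpl801 share was 71.76% and 72.09% in delta4dus against 72.14% and 71.61% in WT. The rpl401 share was lower in both delta4dus libraries, and the groups were 0.53 percentage points apart. The rpl801 groups overlapped.

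For rps101 the share was 35.0% and 34.5% in delta4dus against 34.83% and 35.2% in WT, so rps102 supplied most of the eS1 reads in all 4 libraries. The nearly even pairs were rpl301, at 55.64% and 55.4% in delta4dus against 55.87% and 55.64% in WT, and rps601, at 51.98% and 50.71% in delta4dus against 51.9% and 51.65% in WT. For rps601, delta4dus replicate 2 (50.46 to 50.97) lay below the intervals of the other 3 libraries, while replicate 1 lay with WT. These rankings rest on counts. Reads from the identical run of rpl301 and rpl302 fit both genes, so the split of that pair is uncertain. Per kilobase of deposited length the rps101 share was lowest, at 21.8% to 22.2% in delta4dus and 22.1% to 22.4% in WT. The rpl401 share was then 25.4% to 26.0% in delta4dus and 26.5% in WT. For rps601 it was 39.6% to 40.8% in delta4dus and 40.5% to 40.7% in WT, so by that length the pair was not nearly even. Coding sequences are equally long within a pair, so per kilobase of coding sequence the shares are those of the counts. There rps601 stood at 50.7% to 52.0% in delta4dus and 51.6% to 51.9% in WT. The rps101 share was then 34.5% to 35.0% in delta4dus and 34.8% to 35.2% in WT.

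**Figure D3:**
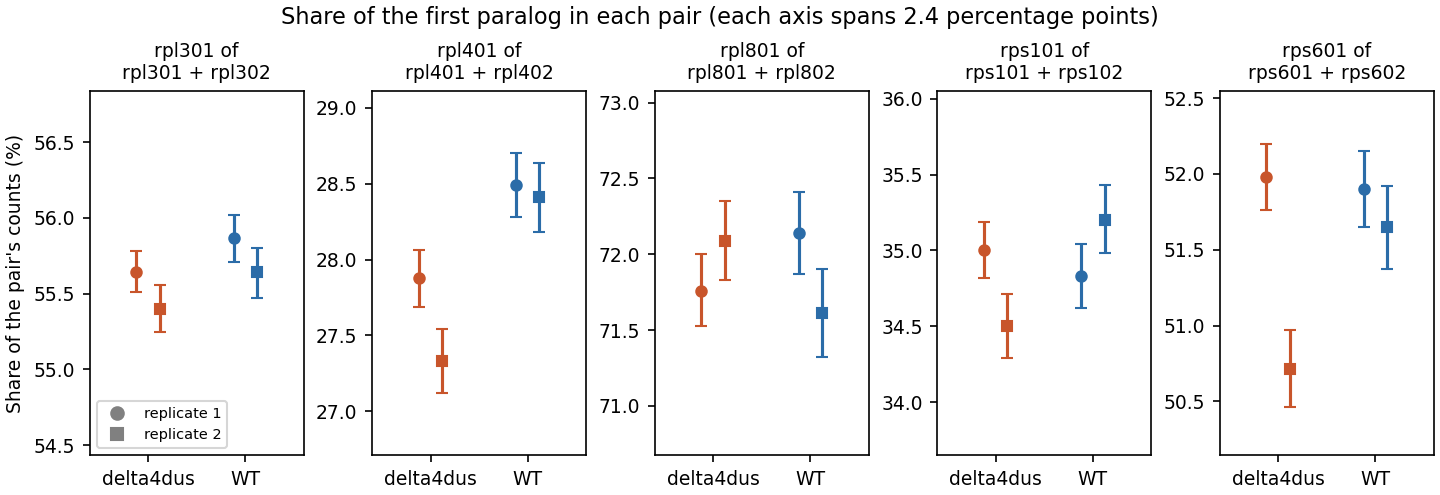
Share of the first-named paralog in the counts of its pair (y axes, percent, each spanning 2.4 percentage points and not starting at 0) in delta4dus (left) and WT (right) libraries, with 95% Wilson intervals. The rpl401 shares of both delta4dus libraries lie below those of both WT libraries, and the groups of the other 4 pairs overlap or touch.

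The mean difference in share, delta4dus minus WT, was -0.846 percentage points for rpl401 (27.6 ± 0.389 in delta4dus and 28.45 ± 0.0579 in WT, SD, n = 2 each), with an exact permutation p of 0.333, two-sided, the smallest that 2 against 2 libraries can give. It was -0.571 without delta4dus replicate 2. For rpl301 it was -0.231 (exact permutation p = 0.667), and -0.111 without that library. For rps101 it was -0.267 (exact permutation p = 0.667), and -0.0129 without it. For rpl801 it was 0.0529 (exact permutation p = 1.0), and -0.11 without it. For rps601 it was -0.428 (exact permutation p = 1.0), and without delta4dus replicate 2 it was 0.203, the opposite direction.

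The ratio of the paralogs was also tested within the fit of all genes, treating each of 56 ribosomal protein families as a unit (edgeR, adjusted over families). No family passed (0.0%), and the rpp2 family had the smallest p (0.00631, edgeR adjusted p = 0.353). The log2 change of the ratio was -0.06 for rpl401/rpl402 (SE 0.149, 95% interval -0.369 to 0.246), 0.01 for rpl801/rpl802, -0.01 for rpl301/rpl302, -0.02 for rps101/rps102 and -0.03 for rps601/rps602, all at an edgeR adjusted p of 0.996. Without delta4dus replicate 2 these changes were -0.041 for rpl401/rpl402, -0.007 for rpl801/rpl802, -0.006 for rpl301/rpl302, -0.001 for rps101/rps102 and 0.012 for rps601/rps602. The edgeR ratio test treated the paralogs of a pair as independent, although both were counted in the same libraries. A rise or fall shared by both in a library therefore enters its SE. Ratios taken within each library were tested with limma, a test chosen after the values were seen. It gave narrower intervals, of -0.205 to 0.0835 for rpl401/rpl402 (SE 0.0664), and no call either. Of all 61 ribosomal protein paralog ratios, 10 (16.4%) had groups that did not overlap, beside 1 of these 5 pairs. The median size of the change was 0.017 in the 5 pairs and 0.0299 over all 61 ratios, on the log2 scale. The median range of a ratio over the 4 libraries was 0.045 in the 5 pairs and 0.115 over all 61. The range of rpl301/rpl302 (0.0272) was the smallest of the 61. Reads from the identical run fit both of its genes, so the ratio of that pair and its change are uncertain.

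**Figure D4:**
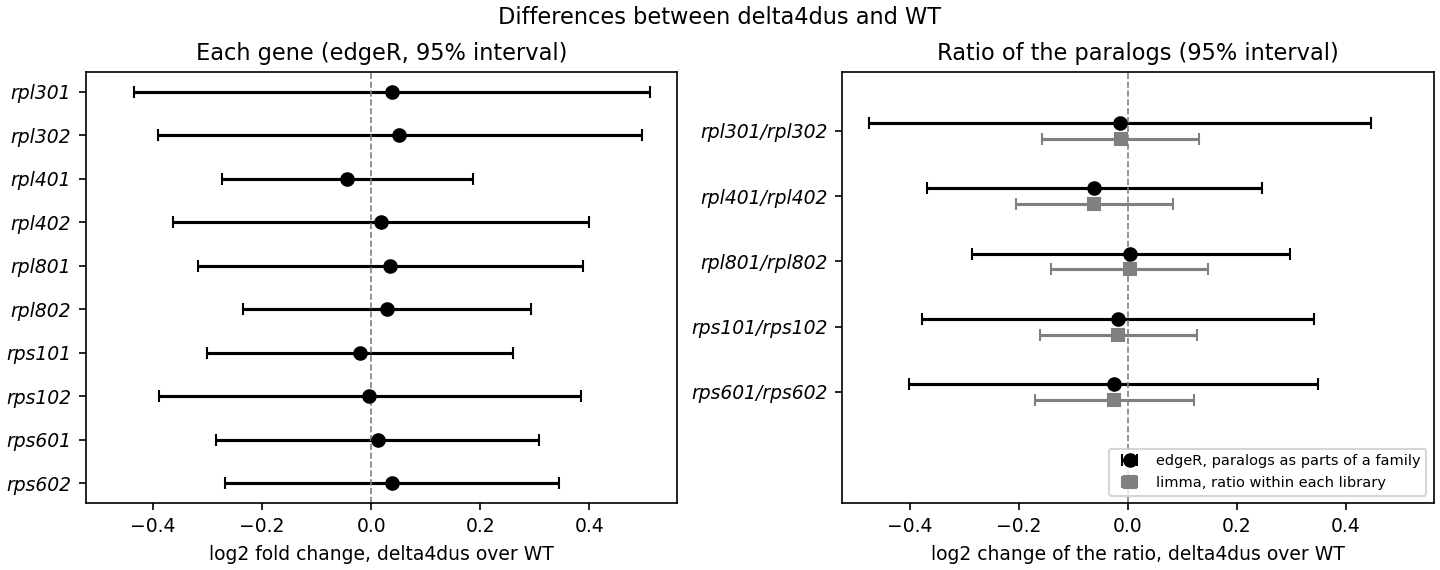
Log2 fold changes of the 10 members (left) and log2 changes of the 5 paralog ratios (right), delta4dus over WT, with 95% intervals. Black circles are edgeR and grey squares limma on ratios within a library, and every interval spans 0.

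No summed pair passed the test either. The log2 fold change of the summed counts was 0.0446 for the rpl3 pair (SE 0.228, edgeR adjusted p = 0.979), 0.0004 for the rpl4 pair (SE 0.175, 1.0), 0.0336 for the rpl8 pair (SE 0.16, 0.978), -0.0088 for the rps1 pair (SE 0.184, 0.992) and 0.025 for the rps6 pair (SE 0.167, 0.986). The sum does not depend on how reads that fit both genes were divided, apart from reads counted at both. With rpl803 in the family, the rpl801 share was 55.57% and 56.0% in delta4dus against 55.75% and 55.82% in WT, and rpl802 and rpl803 each held 21.53% to 22.72% in all 4 libraries.

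Compared per kilobase of the deposited gene length, the levels ran over a wide range, and the order is given as means over the 4 libraries of normalised counts per kilobase. The order was rpl301 (178069), rps102 (145652), rpl302 (120870), rpl402 (103848), rpl801 (93718), rps602 (88560), rps601 (59954), rps101 (41384), rpl401 (36676) and rpl802 (33832). Among the 138 ribosomal protein genes, rpl301 ranked 1 and rpl802 ranked 128. The levels and ranks of rpl301 and rpl302 may each include reads of the other, since most of their 100-base windows occur in both. Neighbours in this order did not overlap in WT. In delta4dus the ranges of rpl402 and rpl801, of rpl801 and rps602, and of rpl401 and rpl802 overlapped, so their order is not set by those libraries.

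Parts of this order depend on the length used. The deposited length of rps101 is 1791 bases and the RefSeq length 920, and per kilobase of RefSeq length rps101 (80564) stood above rps601 (64675). The order of the eS6 genes also turned: rps601 had more counts and a higher level per kilobase of coding sequence (114080, against 107257 for rps602), whereas per kilobase of deposited or RefSeq length rps602 was higher. The deposited rps101 overlaps gpi7 by 766 bases and the non-coding SPNCRNA.141 by 733 bases on the opposite strand, and rps601 overlaps gcv2 by 45 bases on its own strand. Raw counts of these neighbours were far lower, at 3554 and 2664 in delta4dus against 2916 and 2657 in WT for gpi7, and 13191 and 8406 in delta4dus against 10028 and 8078 in WT for gcv2. The intervals of rps101 and rps601 lie 9658 bases apart on chromosome I.

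The members were set beside all cytosolic ribosomal protein genes. Of these 138 genes 0 passed the test and 1 had an unadjusted p under 0.05, beside 0.0734% and 7.57% of all genes tested. Their log2 fold changes lay above 0 in 36 genes and below in 102, beside 3406 above and 3407 below over all genes tested. Their median was -0.02. It was -0.03 in 83 large-subunit genes and -0.02 in 55 small-subunit genes. The groups did not overlap for 9 of the 138 (6.52%), beside the 38.7% of all genes. The largest fold was that of rpp202, a gene of the acidic stalk protein P2, with 35439 and 37509 normalised counts in delta4dus against 62181 and 44733 in WT (log2 fold change -0.55, SE 0.171, edgeR adjusted p = 0.626). It also had the smallest p of the genes below 0, with rpl35A02 at -0.14 and rpl3002 at -0.16 next by p. Above 0, rpl3201 at 0.05, rpl902 at 0.06 and rpl803 at 0.04 had the smallest p. None of them passed the threshold, with edgeR adjusted p between 0.667 and 0.952 for the last 5.

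**Figure D5:**
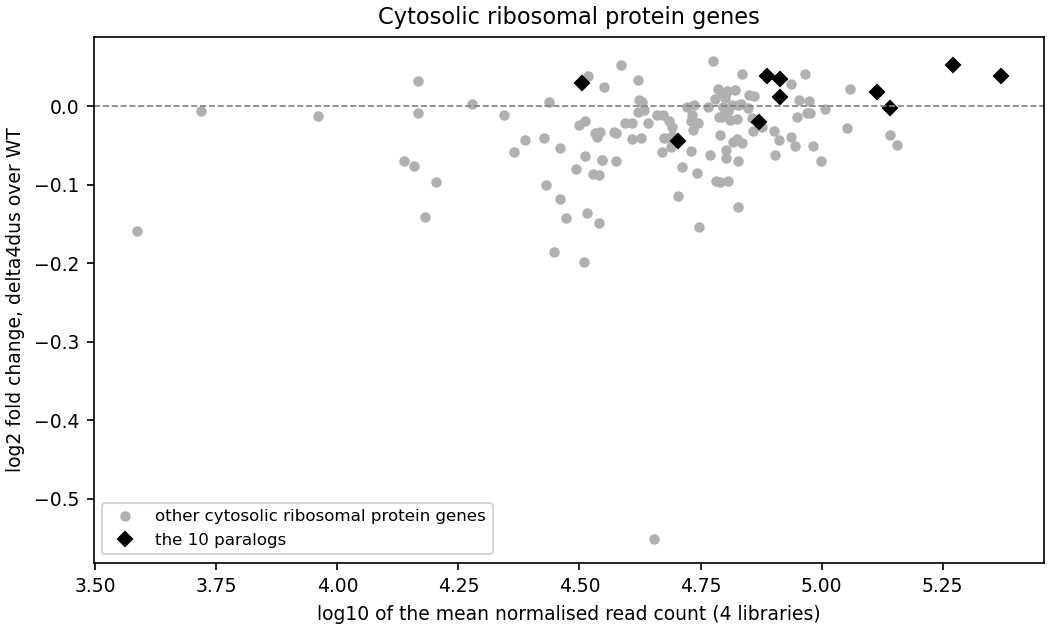
Log2 fold change of delta4dus over WT (y axis) against the log10 mean normalised read count over 4 libraries (x axis) for 138 cytosolic ribosomal protein genes, with the 10 members as black diamonds. The members lie between -0.04 and 0.05, and the lowest point is rpp202 at -0.55.

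Regulators of ribosomal protein genes and the kinases acting on eS6 were tested as a list of 12 named genes, of which 11 matched. No gene passed (4 above 0, 7 below, median -0.04), beside 0.0734% of all genes tested. The genes with the smallest p were rhb1, the Rheb GTPase that activates TORC1, at -0.13 (3003 and 2909 normalised counts in delta4dus against 3280 and 3185 in WT, edgeR adjusted p = 0.667) and tor1, the TORC2 kinase, at 0.09 (8113 and 8119 in delta4dus against 7712 and 7552 in WT, edgeR adjusted p = 0.714). The HomolD-binding factor rrn7 was at -0.1, and psk1, an S6 kinase of fission yeast, at -0.05. Of 22 ribosome assembly factors 0 passed, beside the same 0.0734% of all genes, with 12 above 0, 10 below and a median of 0.01. They include rrb1, whose budding yeast counterpart is the dedicated chaperone of Rpl3, with 8481 and 8773 normalised counts in delta4dus against 8256 and 8623 in WT (log2 fold change 0.03, edgeR adjusted p = 0.921).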

How the data were processed

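RNA was sequenced from 2 delta4dus and 2 WT samples. Per the labels' protocols, ribosomal RNA was depleted from 1 µg of total RNA and a strand-preserving library was made. The authors' counts per gene are raw. Per the submitters' processing notes, reads were trimmed with Trimmomatic 0.36 and aligned with TopHat2 to ASM294v2, and featureCounts and DESeq2 are named there. How reads were assigned by strand, and what was done with multiply mapped ones, is not given in the sources at hand. Within each library the counts of the 3 large ribosomal RNA copies lay within 0.51% of each other. Reads fitting several copies were thus spread evenly over them, and whether each was counted at every copy, divided or placed at random cannot be told from these values. The authors' deposited comparison holds a mean signal, a log2 fold change with its error, a test score and p-values, and lacks the 49 ribosomal RNA genes.

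All 7049 genes were fitted with edgeR 4.0.16 (R 4.3.3): filterByExpr (minimum count 10, total 15; 6813 genes kept), TMM scaling, a robust quasi-likelihood test of genotype, two-sided, Benjamini-Hochberg over all genes. Ratios used edgeR's diffSpliceDGE with paralogs in the place of exons. Log2 ratios per library (pseudocount 0.5) were tested with limma 3.58.1. DESeq2 1.42.0 was an alternative. The fits were also run on counts simulated without a part shared by same-numbered libraries, and no result here rests on that run. Symbols and sequences came from RefSeq ASM294v3 (6844 of 7049 genes matched). Coordinates of genes are those of the deposited table (ASM294v2), and those of sequences are of ASM294v3. Because 3 RNase P genes carry rpp symbols, they were left out of the ribosomal protein genes.

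The named genes are the members, further paralogs of their families, families past the ratio threshold, 3 ribosomal protein genes with the smallest p in each direction, called genes of each list and the 5 genes most like the members. The members and lists were chosen with earlier results of these data known. The examples rhb1, tor1, rrn7, psk1 and rrb1, and the overlapping genes, were named after their values were seen.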

Additional observations from a re-analysis of the deposited data

How the results depend on the processing

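Over 330 alternatives of 30 results, 46 gene, sum, ratio or share values changed sign and 6 counts or medians moved. The members' median also changed sign, by less than the spread between replicates, without WT replicate 1 (-0.006) and without delta4dus replicate 2 (-0.061). None of the values that changed sign had passed a test, and the members called stayed at 0 under each alternative. Genes called were 52 with DESeq2, 825 with the replicate block and 3 without WT replicate 2 (3 to 5 over the libraries left out). Same-numbered libraries deviated alike (Pearson's r = 0.623 over genes), but the labels do not say whether the 2 pairs share more than a number. The replicate block gave 2 of 138 ribosomal protein genes (rpl3002 and rpl35A02), 1 of 56 family ratios (rpp2) and 0 of 10 members. With it the members' log2 fold changes lay between -0.045 and 0.051 (edgeR adjusted p 0.749 to 0.987). Their SEs were 0.0572 to 0.114, beside 0.0919 to 0.189 in the main fit. The ratios of the 5 pairs had SEs of 0.109 to 0.142 with the block, beside 0.141 to 0.223 in the main fit. With library totals alone the median over all genes was -0.42 and the members' median -0.421, and the signs turned with it: rpl301 -0.398, rpl302 -0.386, rpl402 -0.422, rpl801 -0.418, rpl802 -0.419, rps601 -0.422 and rps602 -0.404, and the pair sums -0.393 for rpl3, -0.438 for rpl4, -0.418 for rpl8 and -0.413 for rps6. With a filter of at least 1 CPM in 2 libraries, and with coding genes alone, rps102 was 0.01 and the rps1 sum 0.004. The rpl4 sum was -0.001 with the replicate block.

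Leaving out a library gave log2 fold changes of -0.026 to 0.098 for rpl301, -0.019 to 0.118 for rpl302, -0.097 to 0.006 for rpl401, -0.057 to 0.086 for rpl402, -0.102 to 0.158 for rpl801, -0.095 to 0.142 for rpl802, -0.067 to 0.022 for rps101, -0.066 to 0.056 for rps102, -0.039 to 0.059 for rps601 and -0.051 to 0.121 for rps602. The sums ran from -0.023 to 0.107 (rpl3), -0.068 to 0.064 (rpl4), -0.1 to 0.154 (rpl8), -0.066 to 0.044 (rps1) and -0.045 to 0.09 (rps6). The ratios ran from -0.021 to -0.006 for rpl301/rpl302, -0.08 to -0.041 for rpl401/rpl402, -0.033 to -0.001 for rps101/rps102, -0.014 to 0.024 for rpl801/rpl802 and -0.061 to 0.012 for rps601/rps602. The share differences ran from -0.35 to -0.111 percentage points for rpl301, -1.12 to -0.571 for rpl401, -0.212 to 0.318 for rpl801, -0.521 to -0.0129 for rps101 and -1.06 to 0.203 for rps601. In such a fit the lone library is assumed to vary like the other group, and the cause was not tested. With 2 libraries per strain, changes inside the confidence intervals of the main edgeR tests were not excluded by those tests. These intervals depend on the fit and are not a limit of detection. For the pair ratios they were narrower with limma and with the replicate block. The block also called rpl3002 at a log2 fold change of -0.16 and rpl35A02 at -0.14.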
